A study of Mus musculus with 6 samples.

Results

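RNA-seq of mouse liver sinusoidal endothelial cells (LSECs), the fenestrated cells that line the liver's smallest vessels, was examined for 10 genes that mark hepatic stellate cells and fibroblasts: Fap, Acta2, Tagln, Des, Pdgfrb, Pdgfra, Lrat, Dcn, Lum and Reln. They were found by gene symbol among 60832 genes in the count table, and each matched 1 row. The 6 libraries came from primary LSECs of livers bearing HCT116 xenografts, a human colorectal cancer line grown as liver metastases. The sensitive group (n = 3) came from bevacizumab-sensitive tumors and the resistant group (n = 3) from tumors that had become resistant to bevacizumab, an antibody against VEGF-A. By the study's methods, resistance was produced by prolonged bevacizumab treatment in the mouse and the vehicle animals received IgG. The hosts are listed there as male BALB/c-Nu mice, which lack most T cells, and the labels give no strain or age. In both groups the cells were captured with anti-CD146 beads, and the labels add a culture of 24 h. Neither the labels nor the methods tie a library to 1 animal or to a pool, so the spread between libraries may be partly technical and p-values measure only that spread.

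Hepatic stellate cells lie between the sinusoidal endothelium and the hepatocytes, store retinyl esters when quiescent, and turn into contractile, matrix-producing myofibroblasts when activated. Lrat and Reln are used as markers of the quiescent cell in mouse liver, Des and the PDGF receptors mark stellate cells more widely, and Acta2, Tagln and Fap rise on activation. Dcn and Lum encode matrix proteoglycans of fibroblasts and stellate cells alike. CD146 is itself found on some pericytes as well as on endothelium.

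The libraries held 17599326 to 20726684 counts, and 21792 to 25970 genes had at least 1 count. A count of 0 in a library allows a level of up to 3 counts, which is 0.136 to 0.195 CPM, counts scaled to a common library size here, counting error only. CPM here uses edgeR's TMM scaling. Markers of other cell types than endothelium were present. The summed level of 12 Kupffer cell and macrophage markers was 21989 to 41572 CPM per library, and that of 8 LSEC markers 1064 to 2370 CPM. Of these 8, Mrc1 gave 382 to 1199 CPM and Stab1 496 to 778 CPM, while Clec4g measured 0.822 to 5.35 CPM. Of 8 pan-endothelial markers, 5 were lower in the resistant group at an unadjusted p under 0.05, with groups that did not overlap, and none had an adjusted p under 0.05. Of all genes tested, 3.08% had an unadjusted p under 0.05 and 9.02% had groups that did not overlap, in either direction. The summed level was 209 to 433 CPM for 8 hepatocyte markers, of which Trf alone gave 141 to 300 CPM, 20.6 to 181 CPM for 6 mesothelial markers, 0.257 to 12.0 CPM for 5 erythroid markers and 0.154 to 3.31 CPM for 5 B and plasma cell markers. Of 6 T and NK cell markers, Il7r measured 39.0 to 162 CPM, and the other 5 summed to 0 to 3.05 CPM. Sensitive replicate 2 stood apart. Among genes with a mean of 8 to 30 counts in the other 5 libraries, a window chosen after the values were seen, 33.2% were at 0 in it, against 1.79% to 5.34% in each of the others. Fold changes of members that rest on this library are given with and without it. The values of the other gene lists include it throughout.

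The members spanned more than 3 orders of magnitude per unit of transcript length. On the FPKM scale, which divides by length and so allows genes to be compared, the median over the 6 libraries was 14.0 for Acta2, 3.88 for Dcn, 1.58 for Pdgfra, 0.859 for Des, 0.275 for Tagln, 0.159 for Pdgfrb, 0.141 for Fap, 0.111 for Lum, 0.0192 for Reln and 0.00923 for Lrat. The median of all 15474 genes that passed the filter on low counts was 4.19 FPKM. Acta2 stood above 77.1% of them and Dcn above 48.4%, while Fap stood above 2.73%. Acta2 and Dcn were the only neighbours in this order whose ranges did not overlap. Acta2 exceeded Dcn, Dcn exceeded Pdgfra and Des exceeded Tagln in 6 of 6 libraries. The order of Fap and Lum held in 3 of 6, and that of Tagln and Pdgfrb, of Pdgfrb and Fap, and of Reln and Lrat in 4 of 6, so these neighbours did not differ beyond their spread.

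**Figure D1:**
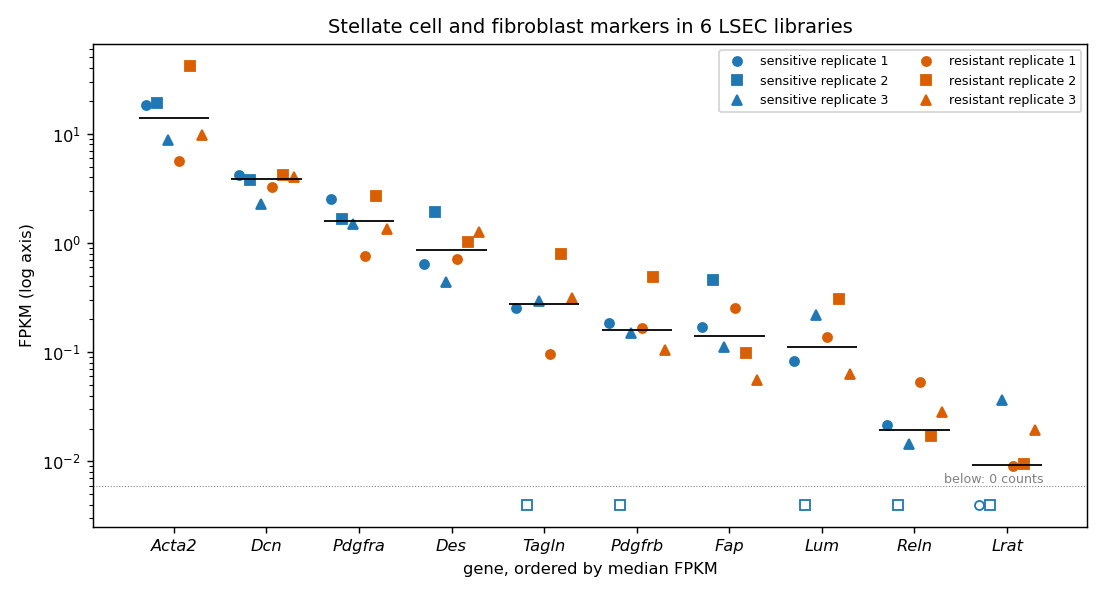
FPKM of the 10 members (log axis), each symbol a library, blue for sensitive and orange for resistant, with the bar at the median of 6. Acta2 has a median of 14.0 and Lrat of 0.00923, and open symbols under the dotted line are libraries with 0 counts, 5 of the 6 in sensitive replicate 2.

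The markers that define the quiescent stellate cell were at or near 0. Lrat, the enzyme that esterifies retinol for storage in lipid droplets, had 0, 0 and 4 counts in the sensitive libraries and 1, 1 and 2 in the resistant ones. It did not pass the filter and was not tested. Reln, which encodes the secreted glycoprotein Reelin, had 10, 0 and 7 counts in the sensitive libraries and 26, 8 and 13 in the resistant ones. Other defining genes of the quiescent cell, named here as checks of the cell type, were also low: Ngfr had 1 count in all 6 libraries together, Gfap had 9 and Lhx2 had 11. Of the Reelin receptors, Lrp8 measured 7.98 to 15.0 CPM and Vldlr 2.21 to 9.55 CPM, both tested with log2 fold changes above 0 and neither at an unadjusted p under 0.05.

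None of the members differed between the groups by the test across all genes. No member of the 8 tested had an adjusted p under 0.05 in edgeR's quasi-likelihood test, where 0 of 15474 genes did (0%). DESeq2's test on the same genes called 24 genes, none of them a member. None had an unadjusted p under 0.05, where 476 genes did (3.08%), and no member's groups failed to overlap, where those of 1395 genes did (9.02%). The smallest unadjusted p of a member was 0.218, for Reln, and the smallest adjusted p of any gene was 0.940. The median log2 fold change, resistant minus sensitive, was 0.19 over the 8 tested members, with 5 above 0, and 0.01 over all genes tested, with 50.8% above 0. The biological coefficient of variation across all genes was 42.2%; a p that misses the threshold does not show that the levels were equal. In bulk RNA, fewer cells of a type and less RNA per cell cannot be told apart, here and in every value that follows.

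Fap encodes fibroblast activation protein α, a membrane-bound serine protease of the dipeptidyl peptidase family, and is the gene the study centered on. The study stained HCT116 xenografts for the protein and found it in stellate cells of vessels taken over by resistant tumors, not in the vehicle group. The values here are RNA of bead-captured cells and do not measure that protein in those cells. Fap measured 0.909, 2.99 and 0.636 CPM in the sensitive libraries (19, 46 and 13 counts). In the resistant libraries it measured 1.36, 0.565 and 0.308 CPM (30, 11 and 6 counts). The highest library was sensitive replicate 2 and the lowest resistant replicate 3, and the groups overlapped, with resistant replicate 1 above 2 of the 3 sensitive libraries. The mean ± SD of 3 libraries was 1.51 ± 1.28 CPM in the sensitive and 0.744 ± 0.548 CPM in the resistant group. Which cells in the libraries held this RNA was not tested. The log2 fold change was -0.998 ± 0.84 (SE), with an edgeR adjusted p of 0.940. It was -0.05 without sensitive replicate 2 and -1.75 without resistant replicate 1, so the size of the difference rested on single libraries of few counts. Without resistant replicate 1 the groups did not overlap, as they then did not for 23.4% of all genes tested.

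Of 7 genes related to Fap by family or belonging to the FGF2 axis that the study examined, all 7 passed the filter. Their log2 fold changes were above 0 for 6 and below 0 for 1, with a median of 0.42, and none had an unadjusted p under 0.05. Dpp8 and Dpp9, intracellular dipeptidyl peptidases, had the highest CPM of them, with sensitive means of 95.8 ± 34.9 and 69.3 ± 31.7 and resistant means of 108 ± 10.99 and 96.0 ± 13.6 (SD, n = 3 each). The receptor gene Fgfr1 measured 57.0 ± 20.4 CPM in the sensitive and 74.5 ± 26.1 CPM in the resistant group (SD, n = 3). For Prep, a cytosolic prolyl peptidase named after its values were seen, the groups did not overlap, with 28.6 to 67.5 CPM in the sensitive and 68.2 to 76.3 CPM in the resistant libraries. The same held for 9.02% of all genes tested.

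The contractile genes were led by Acta2, which encodes α-smooth muscle actin. It measured 37.8, 47.4 and 19.4 CPM in the sensitive libraries and 11.6, 93.1 and 20.9 CPM in the resistant ones, from 256 to 1813 counts. Resistant replicate 2 was the highest of all 6 and resistant replicate 1 the lowest, an 8.03-fold range within 1 group. The sensitive libraries all lay between these extremes. The means were 34.9 ± 14.3 and 41.9 ± 44.6 CPM (SD, n = 3), with a log2 fold change of 0.27 ± 0.76 (SE) and an edgeR adjusted p of 0.956. The sign was not stable: without resistant replicate 2 the log2 fold change was -1.09, and without resistant replicate 1 it was 0.72. With all 6 libraries it was -0.21 with limma-voom, -0.18 with a replicate block and 0.26 with DESeq2.

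Smooth muscle promoters are read by serum response factor through the CArG box, 2 C, 6 A or T and 2 G. RefSeq promoter entries (GRCm38.p6) were found for 5 of the 10 members, and the 250 bases before each listed start were searched on both strands, 1 mismatch allowed. Acta2 held 2 matches, Lrat 1, and Des, Pdgfra and Reln none. Of all 32851 promoter windows of that length, 18.6% held at least 1 match. The 3 matches are shown because they stand in the highest and the lowest member of the set. Each is printed 5′ to 3′ along the gene's strand with 10 bases on either side and the matched bases in capitals. The first match spans bases -84 to -75 and the second -34 to -25 before the listed start of Acta2, and both fall inside the gene as GENCODE M21 draws it, from chromosome 19, 34241090 to 34255590 on the minus strand.
Acta2, chr19:34255438-34255467, minus strand: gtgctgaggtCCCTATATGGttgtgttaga
Acta2, chr19:34255388-34255417, minus strand: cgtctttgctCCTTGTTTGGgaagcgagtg
Lrat, chr3:82904178-82904207, minus strand: cttctcaccgCCAAGAAAGGtgctccattc
Each differs from the full box by 1 base. A match is a description of these letters only, and the libraries hold no measurement of factor binding.

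Tagln, which encodes the actin-binding protein SM22α and is switched on together with Acta2 in smooth muscle, was low. It measured 0.479, 0 and 0.587 CPM in the sensitive libraries and 0.181, 1.59 and 0.615 CPM in the resistant ones, from 0 to 31 counts. Resistant replicate 2 was again the highest, and the groups overlapped. The log2 fold change was 1.11 ± 1.19 (SE), with an edgeR adjusted p of 0.940, and was 0.13 without resistant replicate 2 and 0.56 without sensitive replicate 2. In FPKM, Acta2 exceeded Tagln 71.4-, 29.9-, 57.9-, 52.9- and 30.8-fold in sensitive replicates 1 and 3 and resistant replicates 1 to 3. In sensitive replicate 2 Tagln was at 0, and a bound of 3 counts, counting error only, gave at least 221-fold. In that library 33.2% of genes in the window given above were at 0, so this is not a firm lower limit. Sensitive replicate 2 was thus the library with the second highest Acta2 level and with no Tagln count. The counts of Tagln are uncertain for another reason: its gene (chromosome 9, 45929619 to 45936058 of GRCm38) overlaps Pcsk7 on the opposite strand by 108 bases and the antisense transcript Gm48529 by 3627 bases, and the use of strand in counting is not stated. Pcsk7 had 395 to 889 counts per library and Gm48529 had 10 to 37.

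Des encodes desmin, the intermediate filament of muscle and of stellate cells. It measured 2.25, 8.24 and 1.66 CPM in the sensitive libraries and 2.49, 3.85 and 4.61 CPM in the resistant ones, from 34 to 127 counts. Sensitive replicate 2 was the highest and the other 2 sensitive libraries the lowest. The log2 fold change was -0.14 ± 0.66 (SE), with an edgeR adjusted p of 0.975. Without sensitive replicate 2 it was 0.89, and the remaining groups did not overlap, as they then did not for 19.3% of all genes tested. Acta2, Tagln and Des therefore did not all share a highest library: Acta2 and Tagln were highest in resistant replicate 2, and Des in sensitive replicate 2.

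Of the PDGF receptors, Pdgfra, the α receptor of fibroblasts and stellate cells, was the higher. It measured 23.7, 19.1 and 15.1 CPM in the sensitive libraries and 7.20, 27.6 and 13.1 CPM in the resistant ones, from 159 to 538 counts. The extremes were resistant replicate 1 at the bottom and resistant replicate 2 at the top, as for Acta2. The log2 fold change was -0.27 ± 0.48 (SE), with an edgeR adjusted p of 0.940. It was -0.91 without resistant replicate 2, when the groups no longer overlapped (15% of all genes tested did the same), and 0.09 without resistant replicate 1. Among the 28 pairs of tested members, the Pearson r of log2 CPM over the 6 libraries ran from -0.868 for Fap and Tagln (Spearman rho -0.943) to 0.916 for Acta2 and Pdgfra (rho 0.886), with a median of 0.108. Acta2 and Tagln had an r of 0.269 (rho 0.257), which was 0.887 without sensitive replicate 2, where Tagln was at 0. Without the 2 libraries farthest from the median of Acta2 it was -0.796. The r of Fap and Tagln was -0.633 without sensitive replicate 2. For Acta2 and Pdgfra, the highest pair, r was 0.803 without the 2 libraries farthest from the median of Acta2 and 0.920 without sensitive replicate 2. These libraries share their depth and their other cell types, and the values are a description.

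Pdgfrb, the β receptor that is the usual pericyte and stellate cell marker, measured 0.957, 0 and 0.832 CPM in the sensitive libraries and 0.861, 2.72 and 0.564 CPM in the resistant ones, from 0 to 53 counts. Resistant replicate 2 was the 1 library above 1 CPM. The log2 fold change was 1.18 ± 1.15 (SE), with an edgeR adjusted p of 0.940, and was 0.24 without resistant replicate 2 and 0.61 without sensitive replicate 2. In FPKM, Pdgfra exceeded Pdgfrb 13.5- and 9.93-fold in sensitive replicates 1 and 3, and 4.57-, 5.55- and 12.7-fold in resistant replicates 1 to 3. In sensitive replicate 2 the bound of 3 counts gave at least 53.6-fold, again counting error only and not a firm lower limit. The next gene on the same strand, 15537 bases away, is Csf1r, the macrophage colony-stimulating factor receptor, which had 10050 to 28672 counts per library.

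The ligands of these receptors were measured in every library. Pdgfc had 34.8 ± 5.04 CPM in the sensitive and 32.8 ± 12.2 CPM in the resistant group, Pdgfb 22.3 ± 13.4 and 28.0 ± 5.90 CPM, and Pdgfa 23.9 ± 4.18 and 19.6 ± 4.97 CPM (SD, n = 3 each). Of the 3 that passed the filter, the log2 fold change was above 0 for 1 and below 0 for 2, and none had an unadjusted p under 0.05.

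**Figure D2:**
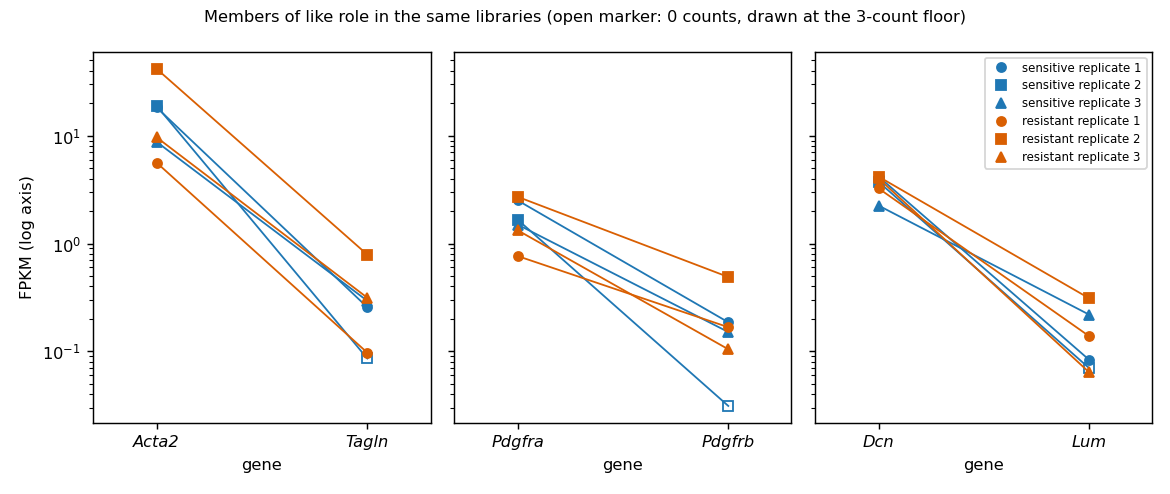
FPKM (log axis) of members of like role, joined by library, blue for sensitive and orange for resistant. Acta2, Pdgfra and Dcn exceed Tagln, Pdgfrb and Lum in 6 of 6 libraries, by 29.9-fold or more for Acta2 over Tagln, and open symbols mark 0 counts drawn at the level of 3 counts.

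Dcn, decorin, a small leucine-rich proteoglycan that binds collagen fibrils and TGF-β, was the steadiest member. It measured 22.9, 24.9 and 13.2 CPM in the sensitive libraries and 17.8, 24.8 and 23.1 CPM in the resistant ones, from 270 to 482 counts. Sensitive replicate 3 was the lowest, and the other 5 libraries lay within 17.8 to 24.9 CPM. Its log2 fold change was 0.11 ± 0.30 (SE), the smallest SE of the 8, with an edgeR adjusted p of 0.956. It was -0.12 without sensitive replicate 3 and 0.27 without sensitive replicate 2.

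Lum, lumican, another leucine-rich proteoglycan, had 4, 0 and 11 counts in the sensitive libraries and 7, 15 and 3 counts in the resistant ones, and did not pass the filter. It lies next to Dcn on the same strand, 46985 bases away on chromosome 10. The neighbours differed in level: in FPKM, Dcn was 10.3-fold above Lum in sensitive replicate 3, 23.5-fold in resistant replicate 1 and 13.5-fold in resistant replicate 2, and Lum had 4 counts or fewer in the other 3 libraries. Among 10 further small leucine-rich proteoglycans, 2 passed the filter, Bgn and Chad, with log2 fold changes of 0.24 and 0.17. Bgn, biglycan, measured 24.5, 10.4 and 8.61 CPM in the sensitive libraries and 15.2, 25.8 and 10.5 CPM in the resistant ones.

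Reln, given above in counts, had the largest fold change of the members. It measured 0.479, 0 and 0.343 CPM in the sensitive libraries and 1.18, 0.411 and 0.666 CPM in the resistant ones. Resistant replicate 1 was the highest, and resistant replicate 2 lay below sensitive replicate 1. The log2 fold change was 1.40 ± 1.04 (SE), with an edgeR adjusted p of 0.940, and was 0.86 without sensitive replicate 2, the library at 0.

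**Figure D3:**
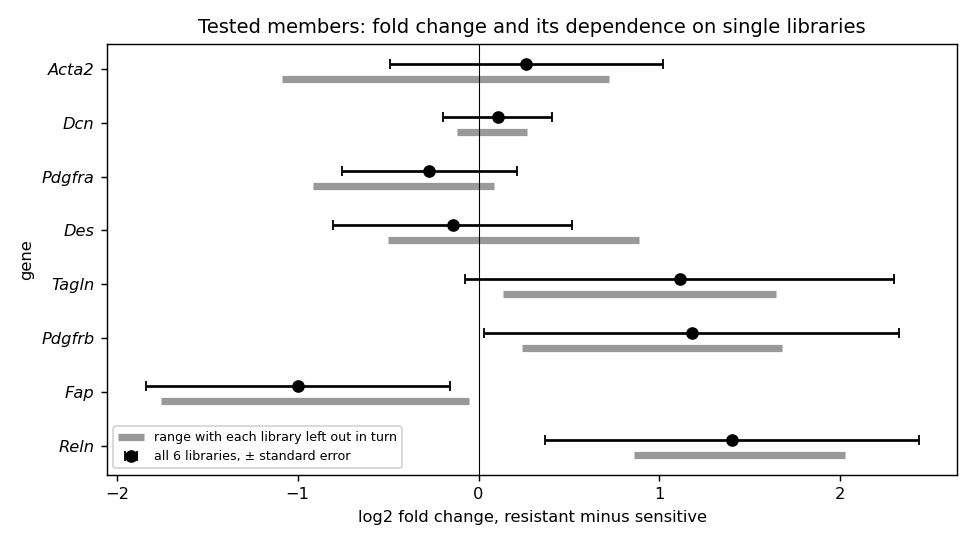
Log2 fold change (resistant minus sensitive) of the 8 tested members, black points with standard errors, and grey bars for the range over the 6 fits that omit 1 library. The grey bars of Acta2 (-1.09 to 0.72), Des (-0.50 to 0.89), Pdgfra (-0.91 to 0.09) and Dcn (-0.12 to 0.27) cross 0.

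The highest values of the members fell in few of the libraries. Resistant replicate 2 was highest for 5 members, Acta2, Tagln, Pdgfrb, Pdgfra and Lum. Sensitive replicate 2 was highest for 3, Fap, Des and Dcn, and at 0 for 5, Tagln, Pdgfrb, Lrat, Lum and Reln. The summed level of all 10 was 89.6, 103 and 52.5 CPM in the sensitive and 43.0, 155 and 64.2 CPM in the resistant libraries, and Acta2 made up 26.9% to 59.9% of this sum. Other cell type markers also varied by library. In resistant replicate 2 the summed pan-endothelial level was the lowest of the 6, 72.8 CPM against 222 to 451 CPM in the others. Of 6 cholangiocyte and epithelial markers, Spp1, which macrophages also make, was highest there, with 817 CPM against 21.2 to 342 CPM, while the other 5 summed to 21.9 CPM there and to 2.40 to 66.5 CPM in the others. In sensitive replicate 2 the summed neutrophil level was the highest, 6848 CPM against 311 to 4179 CPM, and so was that of the exocrine pancreas, 106 CPM against 0 to 35.0 CPM. The part of these cells in the members' values was not tested.

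**Figure D4:**
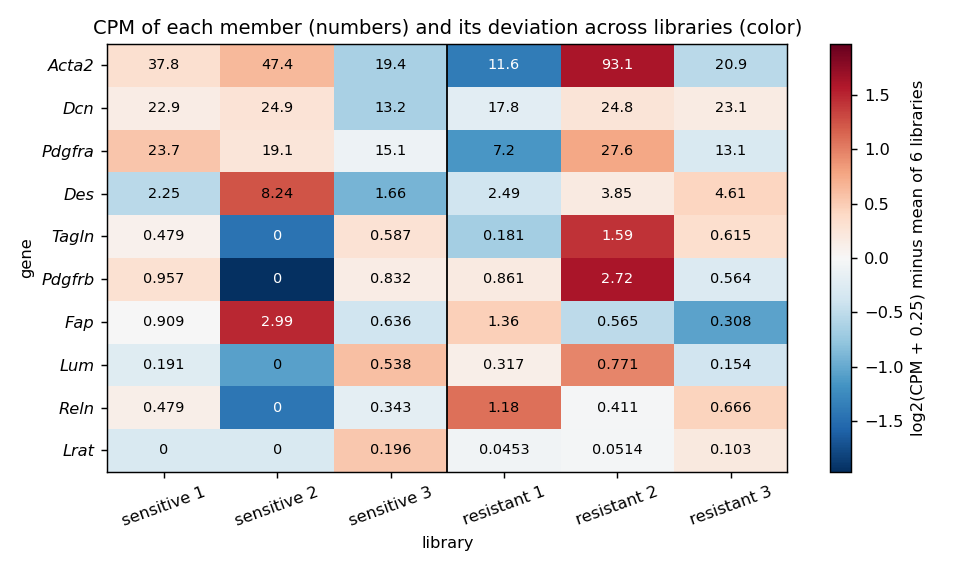
CPM of the 10 members (printed values) in each library, colored by log2(CPM + 0.25) minus the member's mean over 6 libraries. Resistant replicate 2 is the highest for 5 members, and sensitive replicate 2 is at 0 for 5 and the highest for 3.

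Col1a1, the α1 chain of type I collagen and a product of the same activated cells and named here for comparison with Acta2, had its peak in the same library as Acta2, with 48.3, 42.6 and 24.7 CPM in the sensitive libraries and 24.7, 135 and 38.5 CPM in the resistant ones. In FPKM, Acta2 exceeded Col1a1 1.40- to 3.33-fold in 6 of 6 libraries. Of 17 genes of activated stellate cells and myofibroblasts, 16 passed the filter, 7 with log2 fold changes above 0 and 9 below, with a median of -0.20 and none at an unadjusted p under 0.05. The highest of them are not restricted to myofibroblasts: Vim (vimentin) measured 1320 ± 440 CPM in the sensitive and 1272 ± 455 CPM in the resistant group, S100a6 368 ± 319 and 159 ± 66.2 CPM, and Fn1 (fibronectin) 274 ± 170 and 212 ± 87.3 CPM (SD, n = 3 each). For Thbs2, named after its values were seen, the groups did not overlap, with 0.734 to 4.74 CPM in the sensitive and 0.461 to 0.725 CPM in the resistant libraries. They parted at 15 counts in sensitive replicate 3 and 16 in resistant replicate 1, and 9.02% of all genes tested had groups that did not overlap.

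Of 13 further genes of quiescent stellate cells, 8 passed the filter, 2 with log2 fold changes above 0 and 6 below, with a median of -0.49. Ecm1, the highest in CPM, measured 578 ± 209 CPM in the sensitive and 415 ± 156 CPM in the resistant group, Hgf (hepatocyte growth factor) 7.43 ± 4.77 and 7.94 ± 0.978 CPM, and Angptl6 7.34 ± 7.75 and 3.29 ± 0.401 CPM (SD, n = 3 each). Rgs5, a regulator of G protein signaling also found in pericytes and named after its values were seen, was the 1 gene of this list at an unadjusted p under 0.05 (0.0487, edgeR), with 1.77 to 2.496 CPM in the sensitive and 0.308 to 1.40 CPM in the resistant libraries. Its edgeR adjusted p was 0.940, and 3.08% of all genes tested had an unadjusted p under 0.05.

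Of 12 smooth muscle and pericyte genes, 3 passed the filter. The summed level of the 12 was 11.9 to 15.4 CPM per library, and Smtn (smoothelin) measured 8.66 ± 1.445 CPM in the sensitive and 10.7 ± 1.96 CPM in the resistant group (SD, n = 3). Kcnj8, a subunit of ATP-sensitive potassium channels of pericytes, measured 1.10, 5.26 and 2.84 CPM in the sensitive libraries and 0.317, 0.205 and 0.461 CPM in the resistant ones. Its log2 fold change was -3.20 ± 0.74 (SE), at an unadjusted p of 0.00338 and an adjusted p of 0.940 in edgeR's test. An unadjusted p under 0.05 was reached by 3.08% of all genes tested. Cnn1, calponin of smooth muscle, was at 0 to 1.44 CPM and was not tested. Among portal fibroblast genes, 7 of 12 passed the filter, 2 with log2 fold changes above 0 and 5 below, with a median of -0.31. Ly6a, which endothelial and immune cells also carry, measured 586 ± 294 CPM in the sensitive and 259 ± 200 CPM in the resistant group, Fbln2 60.1 ± 28.6 and 82.9 ± 47.8 CPM, and Pi16 24.1 ± 27.9 and 4.18 ± 2.86 CPM (SD, n = 3 each).

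Transcripts of TGF-β, serum response factor and retinoid genes were detected in both groups, and signaling activity was not measured. Of 12 TGF-β ligands, receptors and targets found in the table, all 12 were tested, 7 with log2 fold changes above 0 and 5 below, with a median of 0.10. Tgfb1 measured 218 ± 36.2 CPM in the sensitive and 213 ± 5.41 CPM in the resistant group, and Tgfbr2 364 ± 147 and 437 ± 56.6 CPM (SD, n = 3 each). Of 9 genes of serum response factor, its cofactors and targets found in the table, 8 were tested, 6 above 0 and 2 below, with a median of 0.16. Of 11 retinoid storage and transport genes, 9 were tested, 4 above 0 and 5 below, with a median of -0.05. In that list Plin2, a lipid droplet protein of many cells, measured 2981 ± 1212 CPM in the sensitive and 2175 ± 266 CPM in the resistant group, and Rdh10, a retinol dehydrogenase named after its values were seen, had groups that did not overlap, with 4.93 to 9.445 CPM in the sensitive and 10.4 to 12.9 CPM in the resistant libraries. None of these 3 lists held a gene at an unadjusted p under 0.05, and 9.02% of all genes tested had groups that did not overlap.

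The genes whose pattern over the 6 libraries was most like a member's were sought among 13484 genes, by Pearson's r of log2 CPM. Acta2 was nearest to Got2 and Med9 (r of 0.982 for both), Pdgfra to Bbip1 (0.982) and BC021767 (0.976), and Dcn to Spsb4 (0.989) and Phlda1 (0.985). Fap was nearest to Cnih2 (0.998), Des to Cd320 (0.997), Tagln to Ift80 (0.995), Pdgfrb to Pgap2 (0.998) and Reln to an unannotated locus (0.993). With 6 libraries such values are common: 43 genes passed r of 0.9 with Pdgfra, 464 with Fap and 772 with Reln.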

How the data were processed

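The authors aligned paired-end reads with HISAT2 2.0.5 and counted them per gene with featureCounts 1.5.0-p3. The deposited table gives counts and FPKM per library. The FPKM deposited by the authors equaled count over library total and 1 length per gene within 0.1% for 100% of 28052 genes. Their processing notes list the mm9 build, but 52083 of 60832 gene identifiers matched GENCODE M21 (GRCm38), from which gene positions were taken. Another 5473 rows were unannotated loci. The methods name both poly(A) selection and rRNA depletion. A second deposited table, of group means, fold changes and p-values, was not used.

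Counts were tested in R 4.3.3 with edgeR 4.0.16 (filterByExpr, TMM, robust quasi-likelihood F test, two-sided, Benjamini-Hochberg over all genes tested), resistant against sensitive. Alternatives used DESeq2 1.42.0, limma 3.58.1, other filters and scalings, log2(FPKM + 0.1), a replicate block and leaving out each library. Libraries of 1 group differed far beyond sampling noise (chi-square of 36.7 to 279 per gene), so none was a copy. The code was tested on simulated data with 50 changed genes at each fold. It recovered 0 of 50 at 2-fold, 24 at 4-fold, 33 at 8-fold and 44 at 16-fold, and called 9 unchanged genes. An exact permutation test of 3 against 3 cannot go below p = 0.1 and was not used. The members and gene lists were chosen with earlier results of these data known. Named genes were the members, the 3 of each list with the highest mean CPM at most, any with an adjusted p under 0.05, and the 2 genes most like each member in pattern, with Ngfr, Gfap, Lhx2, Col1a1, the leading markers Trf, Il7r and Spp1, the Pcsk7, Gm48529 and Csf1r neighbours and genes said to be named after their values were seen as exceptions. The LSEC markers Mrc1, Stab1 and Clec4g were named as well. Older symbols listed beside current ones were not counted. The values of 2 list genes are not reported here.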

Additional observations from a re-analysis of the deposited data

How the results depend on the processing

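No member had an adjusted p under 0.05 under any of the 15 alternatives. Of 116 alternative fold changes, 102 kept their direction and 14 turned. Acta2 turned to -0.21 with limma-voom, -0.14 on log2(FPKM + 0.1), -0.18 with the replicate block, -0.01 without sensitive replicate 3, -1.09 without resistant replicate 2 and -0.0044 with sample quality weights, an alternative chosen after seeing the data. Des turned to 0.24, 0.19 and 0.16 under the first 3 of these, to 0.89 without sensitive replicate 2, 0.08 without resistant replicate 1 and 0.83 with quality weights. Pdgfra turned to 0.087 without resistant replicate 1 and Dcn to -0.117 without sensitive replicate 3. With a library left out, the range was -1.09 to 0.72 for Acta2, -0.50 to 0.89 for Des, -0.914 to 0.087 for Pdgfra and -0.117 to 0.267 for Dcn. The causes were not tested beyond the library left out. Fap, Tagln, Pdgfrb and Reln kept their sign wherever they were tested. Over all genes, 0 passed in the main test (476 at an unadjusted p under 0.05), 2 with no filter on low counts, 24 by DESeq2 and 1 with quality weights. With a library left out, 0 to 2 members had groups that did not overlap, as did 12.6% to 26.7% of all genes tested in these fits, against 0 members with all 6. The members were Reln without sensitive replicate 1 and Des without sensitive replicate 2. They were Fap and Tagln without resistant replicate 1, and Pdgfra and Reln without resistant replicate 2. Libraries of the same number did not deviate together (r of -0.00093, 0.034 and 0.194), so the block stands for no known pairing; with it 0 members and 0 genes passed (467 at an unadjusted p under 0.05). The FPKM scale moved the median of all genes to 0.10. Fap, Tagln, Pdgfrb, Lum, Reln and Lrat rested on 0 to 53 counts in a library, so their values carry the most counting error.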
